A study of Mus musculus with 4 samples.

Results

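Lung immune cells of resting Ift20 KO and WT mice were compared, lineage by lineage, in 2 single-cell libraries from animals that had received DPBS, a buffered saline, and no allergen. The WT library came from C57BL/6 mice with the genotype Ift20 f/f, and the KO library from C57BL/6 mice with the genotype Ift20 f/f CD4 cre, so both groups carried the floxed allele and only the KO group carried Cre. The study's methods give young males in every experiment. They place the loxP sites around exons 2 and 3 of Ift20, and the labels do not say how many mice were pooled into a library. Cells that were negative for the dead-cell dye 7-AAD and positive for CD45.2, a marker of blood-derived cells, were sorted from lung tissue on day 15 and sequenced with 10x Genomics 3′ v3 chemistry. The remaining 2 libraries of the series came from WT and KO mice given 25 µg of papain, a protease allergen, into the nose, and their values are set beside the resting ones as a second comparison of the same genotypes. The members were barcodes of the DPBS libraries in which over 200 genes were detected and less than 15% of the UMIs (unique molecular identifiers, each 1 captured transcript) were mitochondrial, which left 8144 WT and 5704 KO cells, 13848 of the 27544 that passed in all 4 libraries.

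IFT20 is a small protein of the intraflagellar transport system, which carries cargo along the cilium and sits also at the Golgi apparatus, and T cells, which build no cilium, use it to move receptors to the contact with an antigen-presenting cell. The study asked what IFT20 does in T cells and in airway inflammation. CD4-cre is active while T cells develop in the thymus, before the CD4 and CD8 lineages part, so both lineages delete the gene, and B cells, natural killer (NK) cells, type 2 innate lymphoid cells (ILC2) and myeloid cells do not. Differences in T cells can therefore be set beside differences in cells that keep Ift20. A further background bears on any comparison of sorted tissue cells. Immediate early genes such as Fos and Jun and heat shock genes such as Hspa1a are switched on within minutes by tissue digestion, warming and sorting, so these handling-stress genes are described apart from all others.

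Each genotype was represented by 1 library, so the spread between mice is unknown and no test was run. The 95% intervals given with the ratios cover the counting of UMIs or cells alone, and genotype, mouse, tissue preparation and library cannot be told apart. The DPBS libraries held 75675956 UMIs in 8552 barcodes for WT and 56430211 UMIs in 5946 barcodes for KO. After predicted doublets were left out, 7559 WT and 5421 KO cells remained, with a median of 5842 and 6537 UMIs and of 5.18% and 5.23% mitochondrial UMIs per cell. Of the barcode sequences that passed, 8 occurred in both DPBS libraries. Each of the 11 lineages compared carried a UMI of every one of its own defining markers in both libraries. That is a low bar, since T-like cells also carried a UMI of every B cell marker. Names end in -like because they rest on these markers. A group of cells with Cd3e UMIs that was led by Foxp3, Ctla4 and Icos did not pass the naming rule and is called the Foxp3-led Cd3e+ cells.

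Ift20 was lower in the KO library in T cells and close to WT in most other lineages. The gene lies on the plus strand of GRCm38 at chr11:78536361-78541737, and its transcript Ift20-203 has 6 exons, of which exon 2 (78538510 to 78538738) and exon 3 (78538834 to 78538962) are the deleted ones. Levels are in CPM, that is, a gene's UMIs scaled to 1000000 UMIs of the lineage. In T-like cells Ift20 stood at 52.6 CPM in WT and 19.0 CPM in KO, a log2 ratio of KO to WT of -1.47 (-1.71 to -1.24). The papain libraries held 50.4 CPM in WT and 17.6 CPM in KO. The KO libraries were thus the lower ones under both treatments. The Foxp3-led Cd3e+ cells had 85.6 CPM in WT and 19.5 CPM in KO (log2 ratio -2.14, -2.97 to -1.39). A 3′ library reads the end of a transcript, which here lies outside the deleted exons, so the UMIs that remained in KO T cells do not measure how complete the deletion was.

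Among lineages in which Cre is not made, alveolar macrophage-like cells held 57.0 CPM of Ift20 in WT and 60.04 CPM in KO (log2 ratio 0.07, -0.04 to 0.19). NK-like cells held 116 and 106 CPM (-0.13, -0.68 to 0.40), and conventional dendritic cell (DC)-like cells 52.3 and 43.5 CPM (-0.26, -0.81 to 0.28). B-like cells were the exception in this group, with 43.9 CPM in WT and 34.4 CPM in KO (-0.35, -0.59 to -0.12), and this gap was absent after papain, with 38.6 CPM in WT and 40.4 CPM in KO. Both KO libraries lay below both WT libraries in T-like cells, which was not the case in B-like or alveolar macrophage-like cells.

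**Figure D1:**
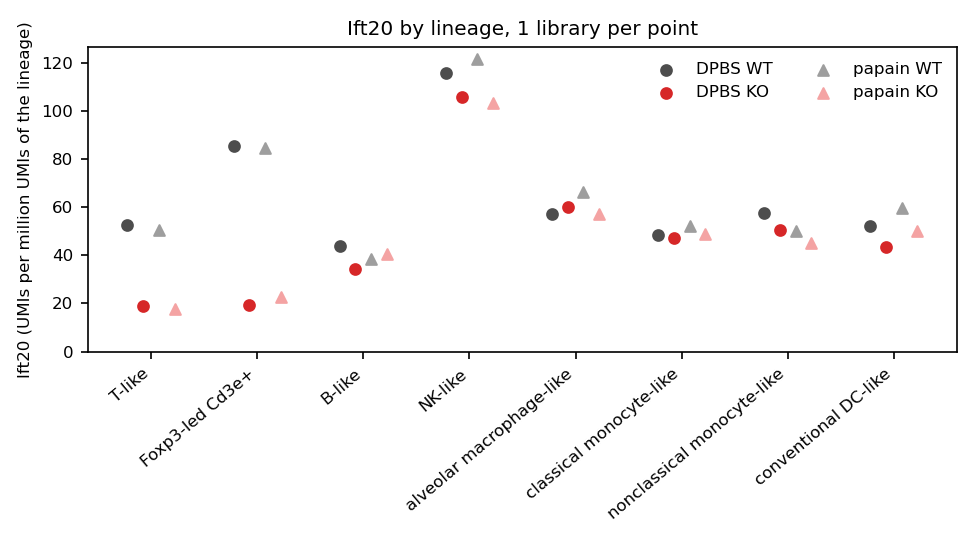
Ift20 level (CPM, linear vertical axis) in 8 lineages, with 1 point for each of the 4 libraries. In T-like and Foxp3-led Cd3e+ cells both KO libraries lie below both WT libraries, and in alveolar macrophage-like cells the DPBS values are 57.0 CPM in WT and 60.04 CPM in KO.

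The large lineages made up similar shares of both resting libraries, and the ratios furthest from 1 were those of small ones. T-like cells were 30.6% of WT cells and 27.7% of KO cells, and B-like cells 29.5% and 27.2%. Alveolar macrophage-like cells were 16.4% and 18.7%. Among them were NK-like cells, with 158 of 7559 WT cells (2.09%) and 66 of 5421 KO cells (1.22%), a log2 ratio of -0.78 (-1.22 to -0.36). After papain that ratio ran the other way, at 1.10 (0.61 to 1.60), so the NK share was not lower in both KO libraries. Nonclassical monocyte-like cells, which patrol vessel walls, were 3.31% of WT and 4.59% of KO cells (0.47, 0.21 to 0.73), and conventional DC-like cells 0.953% and 1.37% (0.52, 0.03 to 1.01). Both ratios were below 0 after papain, at -0.15 and -0.45. ILC2-like cells numbered 70 in WT and 51 in KO (0.02, -0.53 to 0.56). Shares sum to the whole, so a lower share of one lineage and a higher share of another cannot be told apart.

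**Figure D2:**
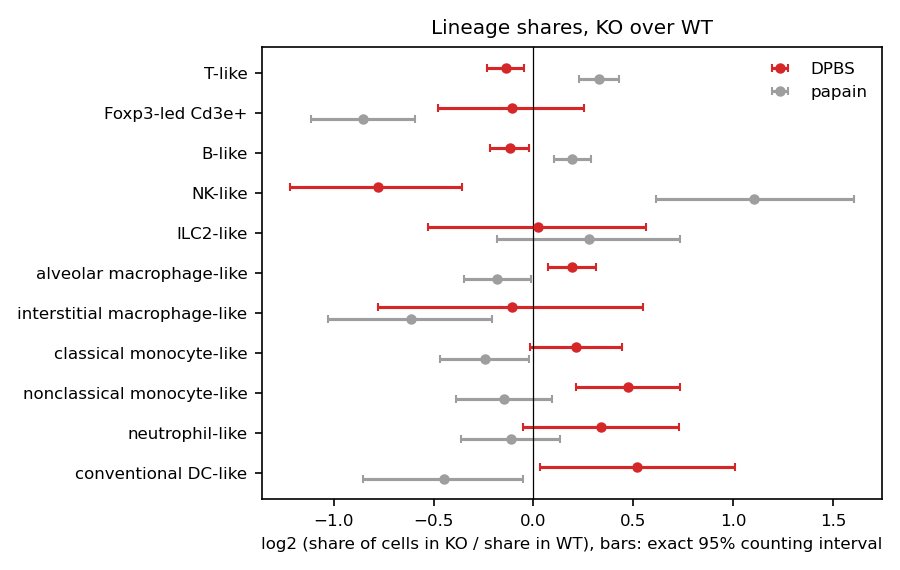
Log2 ratio of the share of cells in KO to that in WT for each lineage, in DPBS (red) and papain (grey), with bars for the 95% counting interval and a line at 0 for equal shares. NK-like cells lie at -0.78 in DPBS and 1.10 after papain, on opposite sides of 0.

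In T-like cells the resting KO library had higher levels of Gzma, Ramp3, Slc15a2, Tnfrsf4, Gch1 and Odc1, among others, and lower levels of several interferon-stimulated genes. Of 8553 genes with at least 100 UMIs in the DPBS libraries together (called measured below), 59 differed by more than 2-fold, or 0.69%, with 40 higher (0.468%) and 19 lower (0.222%) in KO. Ift20 was one of the 19. No gene among the 59 owed more than 50% of its UMIs in the higher library to 1 cell. Gzma, which encodes a granzyme of killer lymphocytes, was at 8.69 CPM in WT and 64.3 CPM in KO (log2 ratio 2.89, 2.61 to 3.18), with 7.86 and 17.2 CPM after papain. Few cells carried it, since 32 WT and 33 KO cells had a Gzma UMI and 1 KO cell held 123 of the 646 KO UMIs. Gzmb, a second granzyme, followed at 6.06 and 24.1 CPM (1.99, 1.63 to 2.37), with 13.7 and 9.11 CPM after papain. The summed NK marker list stood at 61.4 CPM in WT and 114 CPM in KO T-like cells, with 1 of its 10 markers at 0 in WT and 2 in KO. It contains Gzma, so the sum is not separate from the Gzma values, and 4 of the 10 markers were higher in KO. The part of NK cell RNA was not tested. When T cells were picked by Cd3 transcripts instead of clusters, the log2 ratio of Gzma was 1.12 and that of Gzmb was -0.27, and that of Gzma was 1.996 with doublets kept.

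The other named genes covered receptors, transport and metabolism. Ramp3, which encodes a receptor partner for adrenomedullin, was at 40.8 CPM in WT and 129 CPM in KO (1.66, 1.52 to 1.81). Slc15a2, a transporter of small peptides, was at 7.34 and 22.6 CPM (1.62, 1.28 to 1.97). Tnfrsf4, the costimulatory receptor OX40, was at 10.3 and 27.3 CPM (1.4002, 1.10 to 1.70). Metabolic enzymes were among them. Gch1, which starts the synthesis of tetrahydrobiopterin, was at 54.7 and 130.0 CPM (1.25, 1.12 to 1.38), and Odc1, which starts polyamine synthesis, at 162 and 344 CPM (1.09, 1.01 to 1.16). Further genes in this direction were Sbno2, a regulator downstream of interleukin-10, at 34.3 and 79.8 CPM and Tubb2a, a tubulin, at 92.7 and 202 CPM. Among these named genes Slc15a2 alone kept a 2-fold gap after papain, with 2.68 CPM in WT and 28.6 CPM in KO. For Ramp3 (71.2 and 72.8 CPM), Gch1 (88.4 and 86.9 CPM) and Odc1 (229.6 and 234 CPM) the papain libraries had nearly equal levels that lay between the resting WT and KO levels. Of the 59 genes, 52 were measured after papain, and 36 had both papain values between the resting ones. The 59 were picked for a wide resting gap, which by itself favours such values, and the share over all genes was not counted. In the same direction 3 passed 2-fold (Ift20, Gzma and Slc15a2), beside 0.246% of all genes measured after papain that passed it either way. Ramp3 and Tubb2a also lead one of the clusters within the T-like cells (number 4), which held 18.96% of WT and 32.51% of KO T-like cells. With clusters given equal weight in both libraries the log2 ratios were 1.21 for Ramp3, 0.97 for Gch1 and 0.81 for Odc1.

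**Figure D3:**
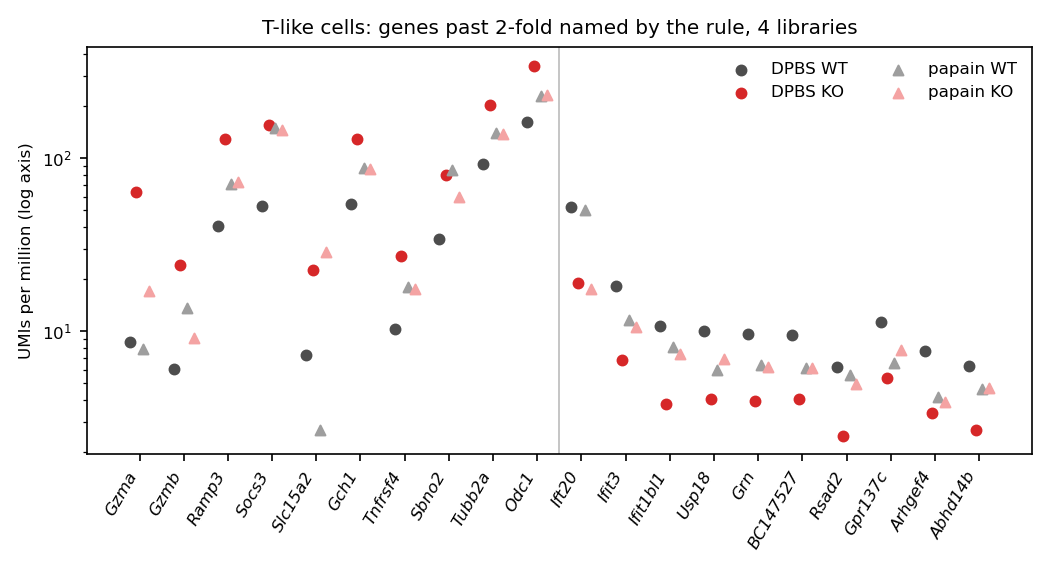
Levels (CPM, log axis) of the T-like cell genes chosen by the naming rule, with 1 point for each of the 4 libraries. The genes were picked for a wide resting gap. For most of them the papain libraries lie between the resting WT and KO libraries, and for Slc15a2 both KO libraries lie above both WT libraries.

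Gene lists for T cell function moved little beside these single genes. Over all measured genes the median log2 ratio in T-like cells was -0.02. The list of naive T cell genes had a median of 0.16 over its 12 members, all measured, with none past 2-fold. Ccr7, the receptor that guides T cells to lymph nodes, was at 555 CPM in WT and 896 CPM in KO (0.69, 0.65 to 0.74), and Satb1, a chromatin organiser, at 561 and 764 CPM. Ccr7 is also a mature DC marker, and it made up nearly all of that list's sum of 559.7 CPM in WT and 901 CPM in KO T-like cells. Tcf7, a transcription factor of naive and memory T cells, was the other way, at 449 and 389 CPM (-0.20, -0.26 to -0.15). Members thus lay on both sides of 0. The T activation list had a median of 0.19 over 15 of 20 members measured, with 2 past 2-fold higher (Tnfrsf4 and Ctla4). Ctla4, an inhibitory receptor, was at 14.5 and 29.3 CPM (1.01, 0.75 to 1.27), while the early activation marker Cd69 was at 202 and 205 CPM and Cd44 at 28.9 and 29.4 CPM.

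Of the type 1 and cytotoxic list, 17 of 20 genes were measured with a median of -0.21. Here Gzma, Gzmb and Fasl were past 2-fold higher, and 8 genes had intervals wholly below 0, as had 1538 of all 8553 genes. Fasl, the ligand of the death receptor Fas, was at 6.70 CPM in WT and 13.8 CPM in KO. Ifng, encoding interferon-γ, was at 9.90 and 5.87 CPM (-0.75, -1.22 to -0.30), Klrk1, the activating receptor NKG2D, at 10.3 and 5.47 CPM (-0.92, -1.39 to -0.46), and Nkg7, a granule protein, at 278 and 219 CPM. The list thus held members on both sides of 0. Genes of T cell receptor signalling had a median of -0.09 over 25 of 25 members, with none past 2-fold. The kinase Lck, which phosphorylates the receptor chains, was at 390.0 CPM in WT and 313 CPM in KO (-0.32, -0.38 to -0.25).

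Pathways that the study examined for a link to IFT20 had medians near that of all genes. The study worked with CD4+ T cells stimulated through CD3 and CD28 in culture. In single-cell RNA of such cells it reported PI3K-AKT-mTOR and glycolysis gene sets as higher in WT than in KO. Genes it gave as lower in KO included Mtor, Slc2a1 and Mdh2. The study also measured phosphorylated proteins, the glucose transporter GLUT1, glycolysis and respiration. The values here are RNA levels in resting lung T-like cells, CD4 and CD8 sides together. They are thus unlike the protein and metabolic measures, and they come from cells unlike those of the study's RNA result. The PI3K, AKT and mTOR list had a median of 0.04 (21 of 22 measured, none past 2-fold), glycolysis -0.07 (15 of 16), the TCA cycle -0.07 (22 of 22) and the respiratory chain -0.02 (35 of 35). Mtor was at 8.41 CPM in WT and 9.36 CPM in KO (0.15, -0.25 to 0.56). Tsg101, which sorts ubiquitinated receptors for degradation and was studied there as a partner of IFT20, was at 36.2 and 37.3 CPM (0.04, -0.15 to 0.24), and the ESCRT list to which it belongs had a median of 0.08 over 20 of 23 genes. Vps37b of the same sorting complex was at 689 and 1337 CPM (0.96, 0.92 to 0.99), with 1001 and 1004 CPM after papain. The intraflagellar transport list had 9 of 24 genes measured, with a median of -0.30 beside -0.02 for all genes. All 9 had ratios below 0, Ift20 among them as the one past 2-fold. Of the other members of this list, Kif3b, a motor subunit, was at 10.7 and 7.27 CPM (-0.56, -0.98 to -0.14) and Ift46 at 10.7 and 7.66 CPM (-0.48, -0.90 to -0.07). In B-like cells the median of the same 9 genes was -0.11. The T-like minus B-like difference had a median of -0.12, with 2 intervals below 0 and 1 above. Against alveolar macrophage-like cells it was -0.37 over 8 genes, with 3 below and 0 above.

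Handling-stress genes in T-like cells split into immediate early genes, most of which were higher in KO, and heat shock genes, which were close to WT. The immediate early list had a median of 0.34 over 29 of 30 genes, 18 intervals above 0 and 3 below, where 1413 of all 8553 genes measured in these cells had intervals above 0 and 1538 below. Socs3, an inhibitor of cytokine receptor signalling, was the one member past 2-fold, at 53.0 CPM in WT and 155 CPM in KO (1.55, 1.42 to 1.68), with 151 and 145 CPM after papain. Junb, a subunit of the AP-1 factor, was at 877 and 1629.8 CPM (0.89, 0.86 to 0.93). Its partners did not follow. Fos was at 370.3 and 389.7 CPM (0.07, 0.01 to 0.13), Jun at 645 and 637 CPM (-0.02, -0.06 to 0.03), and Fosb at 62.2 and 46.6 CPM (-0.42, -0.58 to -0.25). The members furthest above 0 after Socs3 and Junb included Gadd45b (62.3 and 107 CPM) and Pim1 (298 and 477 CPM), which are induced by cytokines. The heat shock list had a median of -0.08 over 19 of 20 genes, none past 2-fold, and Hspa1a stood at 1158 and 1010.2 CPM (-0.20, -0.23 to -0.16). After papain the medians were 0.09 for immediate early genes and -0.08 for heat shock genes.

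The shift of immediate early genes was larger in T-like cells than in the 2 largest lineages without Cre. Taking each gene's log2 ratio in T-like cells minus that in B-like cells, the median over 28 immediate early genes was 0.35. Against alveolar macrophage-like cells it was 0.44 over 29 genes. For comparison, the same difference over all genes had a median of -0.02 against B-like cells and -0.03 against alveolar macrophage-like cells. For heat shock genes it was 0.32 against B-like cells over 18 genes and 0.26 against alveolar macrophage-like cells over 19.

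Most measured genes of the interferon-stimulated list were lower in KO T-like cells. Of 25 genes in the list, 21 were measured, 15 had intervals below 0 and 1 above (over all 8553 genes, 1538 and 1413), 3 were past 2-fold lower (Ifit3, Usp18 and Rsad2), and the median was -0.33, with -0.13 after papain. Ifit3, which binds viral RNA complexes, was at 18.2 CPM in WT and 6.87 CPM in KO (-1.41, -1.81 to -1.02). Usp18, which removes the ubiquitin-like ISG15 tag, was at 10.1 and 4.08 CPM (-1.31, -1.85 to -0.80), and Rsad2, the antiviral enzyme viperin, at 6.20 and 2.49 CPM (-1.32, -2.02 to -0.66). Outside the list, Ifit1bl1 of the same family was at 10.7 and 3.78 CPM (-1.499, -2.05 to -0.98). In each of these genes both papain libraries lay between the resting WT and KO levels. Igtp, an interferon-induced GTPase, was the member with an interval above 0, at 60.2 and 67.5 CPM (0.16, 0.02 to 0.31). Cxcl10, an interferon-induced chemokine outside the list, was past 2-fold higher in KO, with 116 WT and 183 KO UMIs (log2 ratio 1.14).

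A short element known to be bound by interferon-activated factors was searched in the promoters of the list, and its windows are shown for Ifit3 and Rsad2, which were past 2-fold lower. The letters were GAAA, any 2 bases and GAAA again (TTTC, 2 bases and TTTC on the other strand), in the 250 bases before each gene's start in the RefSeq promoters of GRCm38.p6, and they may overlap other motifs. They occurred in 11 of the 17 list genes that had a promoter sequence (Usp18 had none), the higher Igtp among them, and in 3.46% of all 27025 genes. Capitals mark the element in each window, given 5′ to 3′ on the strand of the gene, with the element starting 156 and 122 bases before the start of Ifit3 and 120 bases before that of Rsad2.
Ifit3, chr19:34583363-34583392, plus strand: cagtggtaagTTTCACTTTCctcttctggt
Ifit3, chr19:34583397-34583426, plus strand: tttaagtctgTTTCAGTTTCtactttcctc
Rsad2, chr12:26456553-26456582, minus strand: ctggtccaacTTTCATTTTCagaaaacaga
A match is a description of the letters and shows no binding in these cells.

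The CD4 and CD8 sides of the T-like cells were separated by their own transcripts. Ift20 was at 53.4 CPM in WT and 23.1 CPM in KO in cells with a Cd4 UMI (-1.21, -1.65 to -0.78) and at 52.7 and 15.7 CPM in cells with a Cd8a or Cd8b1 UMI (-1.74, -2.11 to -1.39). In the Cd4 cells 0.761% of 5258 measured genes were past 2-fold, and in the Cd8 cells 0.764% of 7200. Socs3 was higher on both sides, at 44.7 and 157 CPM in Cd4 cells (1.81, 1.54 to 2.08) and with a log2 ratio of 1.37 in Cd8 cells. Gzma was measured in Cd8 cells, at 15.0 and 115 CPM (2.95, 2.65 to 3.25), and Gzmb there at 10.4 and 46.2 CPM. In Cd4 cells the chemokine Ccl5 was at 8.89 and 153 CPM, but 1 KO cell held 383 of the 405 KO UMIs. The immediate early median was 0.41 in Cd4 cells and 0.42 in Cd8 cells, and the interferon-stimulated median -0.28 and -0.38.

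Among the 161 WT and 107 KO Foxp3-led Cd3e+ cells, 0.988% of 2834 measured genes were past 2-fold, 16 higher (0.565%) and 12 lower (0.423%). Foxp3, the defining factor of regulatory T cells, was at 109 CPM in WT and 91.6 CPM in KO (-0.26, -0.68 to 0.15), and Ctla4 at 314 and 285 CPM (-0.14, -0.38 to 0.09). Both intervals held 0. Dapl1, a gene of naive T cells, was at 143 and 20.6 CPM (-2.80, -3.59 to -2.09) in 20 WT and 5 KO cells, and at 35.5 and 51.6 CPM after papain, the reverse order. Ccl5 was at 514 and 1619 CPM (1.66, 1.52 to 1.79) and 297 and 709 CPM after papain, but single cells held 260 of the 625 WT and 389 of the 1415 KO UMIs. The summed NK markers in these cells were 24.7 CPM in WT and 92.7 CPM in KO, and the gamma-delta T markers 216 and 308 CPM. The NK list contains Gzma, with 9 WT and 70 KO UMIs, and 1 KO cell held 37 of the latter. The part of NK and gamma-delta T cell RNA was not tested. Pxdc1 was at 65.0 and 198 CPM at rest and 35.8 and 78.4 CPM after papain, and Lmo4, a transcriptional cofactor, at 153 and 310.1 CPM at rest and 72.2 and 208 CPM after papain. Of the 27 genes measured after papain, 6 were past 2-fold in the same direction, Ift20 as a lower one among them, and 3 in the opposite direction (Tnfsf8, Hilpda and Jak2), where 2.59% of all genes were past it after papain.

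B-like cells had the lowest share of genes past 2-fold among the 11 lineages, 26 of 8135 measured (0.32%), 12 higher (0.148%) and 14 lower (0.172%). Gfod1, a gene with an oxidoreductase domain, was the highest, at 18.3 CPM in WT and 55.8 CPM in KO (1.60, 1.35 to 1.87). Slc15a2, already seen in T-like cells, was at 12.6 and 30.1 CPM (1.26, 0.94 to 1.59) and at 2.98 and 38.1 CPM after papain. Pde3b, a phosphodiesterase, was at 48.1 and 98.8 CPM and the histone gene Hist1h2bc at 83.7 and 178 CPM. Lower genes included Zbtb32, a repressor in activated B cells, at 10.97 and 3.95 CPM (-1.47, -2.14 to -0.85) and 35.9 and 15.4 CPM after papain. Slc15a2 and Zbtb32 were the 2 of the 26 past 2-fold in the same direction after papain, when 0.61% of all genes were. The B cell state list had a median of -0.20 over 20 of 25 genes. Ccr7 (670.0 and 997 CPM), Cd83 (409.7 and 585 CPM) and Cd86 (112 and 151 CPM), which B cells show on activation, were above 0, while Fcer2a, the low-affinity IgE receptor CD23, was at 538 and 406 CPM (-0.41, -0.47 to -0.34) and Ms4a1, the antigen CD20, at 714 and 541 CPM (-0.40, -0.46 to -0.34). The B-like cells came mostly from 2 clusters, number 0 with 60.66% of WT and 44.06% of KO cells and number 1 with 34.01% and 49.76%.

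Klra3, Klrk1 and Ccl3 were lower in KO NK-like cells, in which 1.57% of 1843 measured genes were past 2-fold, 16 higher (0.868%) and 13 lower (0.705%), against 0.641% after papain. Klra3, an inhibitory receptor of the Ly49 family, was at 279.7 CPM in WT and 98.6 CPM in KO (-1.504, -2.02 to -1.02). Klrk1 was at 1070.3 and 498 CPM (-1.10, -1.33 to -0.88), and Ccl3, a chemokine, at 479 and 209 CPM (-1.19, -1.55 to -0.86). After papain the 2 libraries were level or slightly reversed, with 786 and 877 CPM of Klrk1 and 556 and 605 CPM of Ccl3. Ifng was lower at rest (334 and 180.4 CPM) and after papain (556 and 284 CPM). The lytic genes Prf1 (793 and 878 CPM) and Gzmb (1015 and 1054 CPM) had intervals that held 0. The type 1 and cytotoxic list had a median of -0.29 over 17 genes, with 2 past 2-fold lower, 10 intervals below 0 and 0 above (190 and 182 of all 1843 genes). Of the 16 genes past 2-fold higher, 4 had most of their KO UMIs in 1 cell, Spp1 among them. The summed markers of neutrophils in these cells were 12.98 CPM in WT and 426 CPM in KO, and of B cells 36.6 and 69.8 CPM, and their part was not tested.

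In ILC2-like cells 695 genes were measured and 5 were past 2-fold (0.719%), 2 higher (0.288%) and 3 lower (0.432%), against 3.5% after papain. Csf2, encoding the growth factor GM-CSF, was at 265 CPM in WT and 591 CPM in KO (1.16, 0.78 to 1.55). After papain it was at 687 and 613 CPM, so the resting WT library held the lowest value of the 4. Of the 175 resting KO UMIs of Csf2, 53 were in 1 cell. Dusp5, a phosphatase induced by growth signals, was at 156 and 328 CPM. The ILC2 lineage factor Gata3 was at 719.5 and 642 CPM (-0.16, -0.45 to 0.12) and the interleukin-33 receptor Il1rl1 at 420.5 and 439 CPM (0.06, -0.30 to 0.42). The mast cell proteases Cma1 and Tpsb2 had 320 and 127 UMIs in WT, all in 2 cells, and 0 UMIs in KO, which is at least 98.4-fold and 39.04-fold lower with a floor of 3 UMIs. After papain Cma1 was at 0 CPM in WT and 2101 CPM in KO, the reverse order.

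Heat shock genes were lower in the KO library in several lineages without Cre, most of all in interstitial macrophage-like and conventional DC-like cells. The list's median was -0.59 in conventional DC-like cells (18 genes measured, 13 intervals below 0 and 1 above), -0.72 in interstitial macrophage-like cells (17 genes, 12 below and none above), -0.48 in B-like cells (18 genes, 14 below and 1 above) and -0.28 in alveolar macrophage-like cells (19 genes, 15 below and 3 above). Medians over all genes in these lineages were -0.05, 0.01, 0.01 and 0.03, and the intervals of all genes lay below 0 in 414 of 3048, 193 of 1907, 1033 of 8135 and 1025 of 9790. Hspa1a, the inducible HSP70, was at 1592 CPM in WT and 651 CPM in KO alveolar macrophage-like cells (-1.29, -1.32 to -1.26) and at 834 and 726 CPM after papain. In conventional DC-like cells it was at 5596 and 1954 CPM (-1.52, -1.58 to -1.45) and at 2631 and 2527 CPM after papain. The resting WT library was thus the high one of the 4 in both lineages. In B-like cells the gap was smaller, at 2303 and 1650.4 CPM (-0.48, -0.51 to -0.45). Hspa1a and its neighbour Hspa1b are near-identical, and reads may be split between them, so their separate values are uncertain.

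Co-chaperones followed the same direction. Dnajb1, which hands clients to HSP70, was at 1481 CPM in WT and 443 CPM in KO in conventional DC-like cells (-1.74, -1.88 to -1.60), and Bag3, which links HSP70 to autophagy, at 150.3 and 40.4 CPM (-1.89, -2.37 to -1.44). Hspb1, a small heat shock protein, was at 139 and 4.66 CPM (-4.90, -6.36 to -3.74), from 170 and 6 UMIs. After papain Dnajb1 (799 and 399 CPM), Bag3 (90.4 and 33.2 CPM) and Hspb1 (78.2 and 36.0 CPM) were also lower in KO DC-like cells. Hsph1, an HSP110 chaperone, was lower in B-like cells at rest (162 and 83.4 CPM, -0.96) and after papain (214 and 106 CPM, -1.01). Classical monocyte-like cells had a heat shock median of -0.00, and T-like cells of -0.08, so the list was not shifted alike in all lineages. In DC-like cells other scalings raised all log2 ratios by 0.17 (TMM) and 0.14 (median of ratios), which kept these directions.

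**Figure D4:**
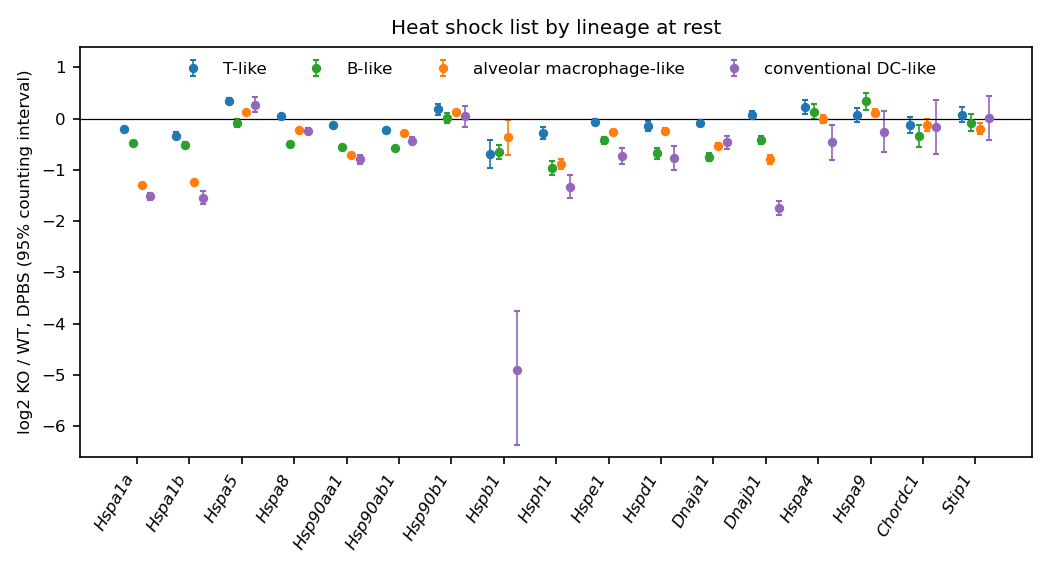
Log2 ratio of KO to WT in DPBS for the heat shock genes measured in T-like, B-like, alveolar macrophage-like and conventional DC-like cells, with bars for the 95% counting interval and a line at 0. T-like cells lie near 0 (median -0.08) and DC-like cells mostly below 0 (median -0.59).

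The binding site of heat shock factors is shown for 3 of these genes, since Hspa1a is the member described above. The letters GAANNTTC, which read the same on both strands and may overlap other motifs, were found in the RefSeq promoters (GRCm38.p6, as above) of 6 of the 15 heat shock genes with a promoter sequence, namely Dnaja1, Hspa1a, Hspa1b, Hspb1, Hspd1 and Hspe1, and in 7.73% of all 27025 genes. Capitals mark the element, which starts 104 bases before the start of Hspa1a and of Hspa1b and 117 and 97 bases before that of Hspb1. The windows of Hspa1a and Hspa1b are the same sequence.
Hspa1a, chr17:34972242-34972271, minus strand: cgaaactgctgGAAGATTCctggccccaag
Hspa1b, chr17:34959324-34959353, minus strand: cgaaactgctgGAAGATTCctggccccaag
Hspb1, chr5:135887791-135887820, plus strand: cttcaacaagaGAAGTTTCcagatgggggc
Hspb1, chr5:135887811-135887840, plus strand: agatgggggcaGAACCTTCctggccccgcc
These letters are a description of the window only.

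Immediate early genes did not follow one direction across lineages. Their median was 0.28 in nonclassical monocyte-like cells (27 genes, 16 intervals above 0 and 4 below, where all 4775 genes had 561 and 478), 0.04 in B-like cells, -0.08 in alveolar macrophage-like cells and -0.25 in conventional DC-like cells (29 genes, 3 above and 17 below, with 366 and 414 for all 3048 genes). In DC-like cells Jun was at 1113 CPM in WT and 405 CPM in KO (-1.46, -1.61 to -1.31), Fos at 1712 and 810.0 CPM (-1.08, -1.19 to -0.97) and Atf3 at 995 and 477 CPM. The papain pair ran the other way for Jun (557 and 833 CPM) and Fos (614 and 1055 CPM). Oxidative and metal stress genes were above the all-gene median in DC-like cells (0.35) and interstitial macrophage-like cells (0.33). The metallothionein Mt2 was at 154 and 326 CPM in DC-like and at 139 and 491 CPM in interstitial macrophage-like cells, while Hmox1, which degrades heme, was at 465 and 227 CPM in the latter (-1.03, -1.34 to -0.74).

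**Figure D5:**
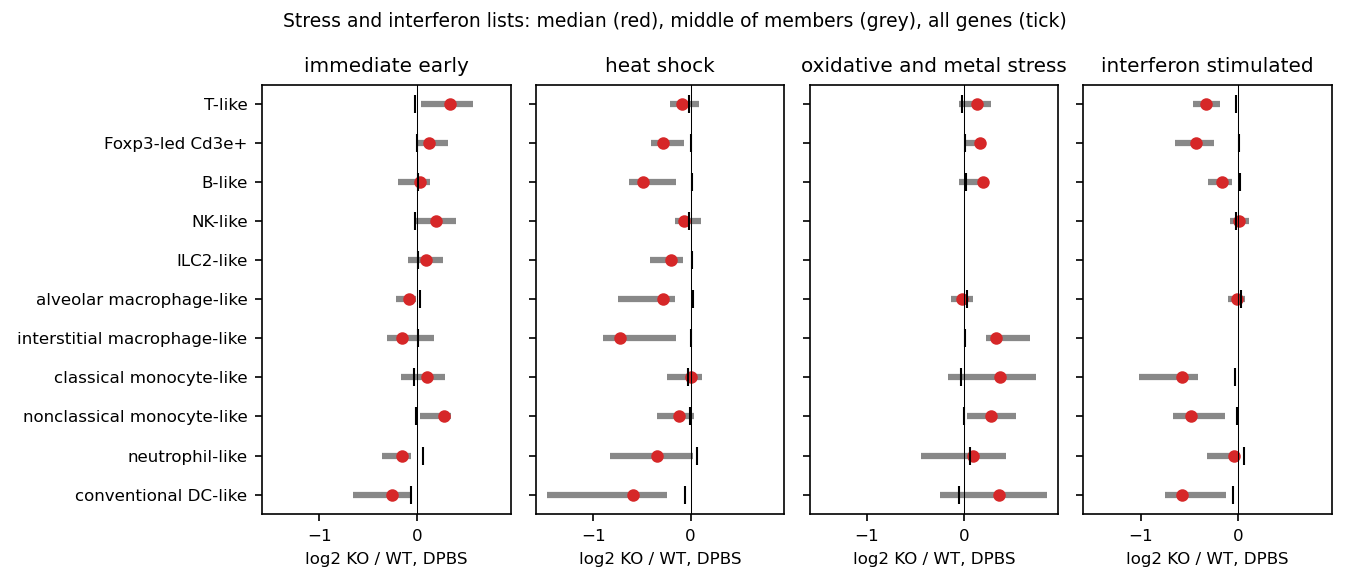
Median log2 ratio of KO to WT in DPBS (red points) of the immediate early, heat shock, oxidative and metal stress, and interferon-stimulated lists by lineage, with grey bars from the first to the third quartile of the members and black ticks for the median of all measured genes. Heat shock medians run from -0.72 in interstitial macrophage-like to -0.00 in classical monocyte-like cells, and the interferon-stimulated median is -0.33 in T-like and -0.57 in classical monocyte-like cells.

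Outside the stress lists, alveolar macrophage-like cells had like levels of their identity genes in both libraries, and Cx3cr1, Ereg and Cxcl1 were among the genes lower in KO. Of 9790 measured genes, 41 were past 2-fold (0.419%), 12 higher (0.123%) and 29 lower (0.296%), against 0.7% after papain. The identity list had 26 of 26 genes measured, none past 2-fold and a median of 0.01. Within it Fabp4, a lipid-binding protein, was at 240.4 CPM in WT and 333 CPM in KO, and the scavenger receptor Marco at 284 and 219 CPM. The myeloid inflammatory list had 15 of 22 genes measured, and none past 2-fold. Cxcl1, a neutrophil attractant, was at 73.0 and 30.4 CPM (-1.26, -1.401 to -1.13) and 65.9 and 79.8 CPM after papain, and Ereg, a ligand of the EGF receptor, at 25.4 and 8.41 CPM (-1.59, -1.85 to -1.34) and 20.6 and 25.1 CPM. Il1b, encoding interleukin-1β, was lower at rest (221 and 122 CPM) and after papain (473 and 265 CPM). Cx3cr1, the fractalkine receptor of monocyte-derived cells, was at 17.9 and 1.91 CPM (-3.23, -3.75 to -2.74), in 31 WT cells of which 1 held 89 of 410 UMIs, and 9.66 and 3.38 CPM after papain. When these cells were picked by transcripts instead of clusters its log2 ratio was -1.17. The chemokine Ccl17 was at 1.396 and 5.68 CPM at rest (2.02, 1.44 to 2.64) and at 137 and 3.16 CPM after papain, the reverse order. The B cell genes Ebf1 (8.25 and 1.86 CPM) and Ms4a1 (3.84 and 0.723 CPM) were among the lower ones, and the whole B marker list summed to 113 CPM in WT and 78.8 CPM in KO. The part of B cell RNA was not tested. The cells fell into 2 clusters, number 2 with 64.08% of WT and 75.74% of KO cells and number 6 with 35.92% and 24.26%.

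In classical monocyte-like cells 83 of 6081 measured genes were past 2-fold (1.36%), 42 higher (0.691%) and 41 lower (0.674%). The higher genes included receptors of innate recognition. Clec4e, the receptor Mincle for mycobacterial glycolipids, was at 84.1 CPM in WT and 223 CPM in KO (1.41, 1.22 to 1.60), Trem1, an amplifier of inflammation, at 41.6 and 117 CPM (1.49, 1.22 to 1.77), and C5ar1, the complement C5a receptor, at 30.6 and 86.8 CPM (1.51, 1.19 to 1.83). Cd14, a co-receptor for endotoxin, was at 430.4 and 928 CPM. All 4 had papain values between the resting ones in both genotypes, for Clec4e 192 and 168 CPM. Fkbp5, a target of glucocorticoids, was at 17.1 and 49.7 CPM (1.54, 1.12 to 1.97) and 41.9 and 73.7 CPM after papain. Thbs1, thrombospondin 1, was at 542 and 1279 CPM (1.24, 1.16 to 1.31), and it leads the cluster (number 12) that held 39.07% of WT and 59.65% of KO cells. With equal cluster weights the log2 ratios were 0.84 for Thbs1 and 1.02 for Clec4e. The myeloid inflammatory list had a median of 0.38 over 10 of 22 genes, with 1 past 2-fold higher, 6 intervals above 0 and 0 below (776 and 951 of all 6081 genes), and its median was 0.04 when the cells were picked by transcripts.

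Interferon-stimulated genes were lower in KO classical monocyte-like cells under both treatments. The list's median was -0.57, with 20 of 25 genes measured, 6 past 2-fold lower, 19 intervals below 0 and none above, and it was -0.71 after papain. Over all 6081 genes 951 intervals were below 0 and 776 above. Ifit3 was at 69.8 CPM in WT and 19.9 CPM in KO (-1.81, -2.22 to -1.42) and at 41.9 and 16.96 CPM after papain. Rtp4, an interferon-induced chaperone, was at 123 and 61.4 CPM (-1.01, -1.25 to -0.77) and 95.3 and 46.2 CPM after papain, and Ifit2 at 24.2 and 8.19 CPM (-1.57, -2.23 to -0.94) and 25.7 and 7.02 CPM. Both KO libraries were below both WT libraries for each of these 3 genes, which were also the 3 of 78 past 2-fold in the same direction in both treatments, where 1.19% of all genes were past it after papain. The median was -0.17 when the cells were picked by transcripts and -0.35 with equal cluster weights, and cluster 11, among whose leading genes are the interferon-induced Ifi211 and Slfn5, held 60.93% of WT and 40.35% of KO cells. The summed B markers in these cells were 206 CPM in WT and 40.4 CPM in KO and the T markers 98.6 and 26.3 CPM, which goes with lower Cd79a, a B cell receptor subunit, at 64.6 and 11.4 CPM, and their part was not tested.

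Nonclassical monocyte-like cells had 37 of 4775 measured genes past 2-fold (0.775%), 22 higher (0.461%) and 15 lower (0.314%). C5ar1 was at 42.9 CPM in WT and 95.4 CPM in KO (1.15, 0.78 to 1.53) and Clec4e at 128 and 241 CPM (0.91, 0.69 to 1.13). Fkbp5 was at 14.3 and 40.2 CPM (1.49, 0.87 to 2.15) and 34.7 and 85.1 CPM after papain, the 1 gene of 34 past 2-fold in the same direction after papain, when 0.213% of all genes were. Lyz1, a lysozyme, was at 142 and 17.9 CPM, with 141 of 288 WT UMIs in 1 cell, and at 8.68 and 60.1 CPM after papain, the 1 gene past 2-fold in the opposite direction. Neutrophil-like cells had 10 of 1109 genes past 2-fold (0.902%), 6 higher (0.541%) and 4 lower (0.361%), against 0.836% after papain. Stfa1, a protease inhibitor, was at 313 and 89.8 CPM (-1.80, -2.42 to -1.22), but 1 cell held 111 of its 135 WT UMIs, and after papain it was at 243 and 296 CPM. The chemokine Ccl4 was at 542 and 207 CPM at rest and 192 and 528 CPM after papain. The neutrophil granule list had no member past 2-fold among 12 measured and a median of -0.12.

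In conventional DC-like cells 51 of 3048 measured genes were past 2-fold (1.67%), 22 higher (0.722%) and 29 lower (0.951%), against 1.85% after papain, and the ones outside the stress lists included chemokines of mature DCs. Ccl22, which attracts T cells through CCR4, was at 143 CPM in WT and 549 CPM in KO (1.94, 1.70 to 2.19). Ccl17, which uses the same receptor, was at 465 and 1175 CPM (1.34, 1.198 to 1.48). In the KO library 1 cell held 233 of the 706 Ccl22 UMIs, and 1 cell held 323 of the 1511 Ccl17 UMIs. After papain both were higher in WT, with 305 and 187 CPM of Ccl22 and 1487 and 803 CPM of Ccl17. The summed mature DC marker list was 412 CPM in WT and 791 CPM in KO DC-like cells. It contains Ccl22, so this sum is not separate from the Ccl22 values above. Markers of other cells also differed, with sums of 118 and 16.3 CPM for B cells, 374 and 172 CPM for T cells and 199 and 428 CPM for neutrophils. The neutrophil list contains Il1r2, which alone was at 177 CPM in WT and 413 CPM in KO DC-like cells. Of the 7 neutrophil markers with UMIs, 2 were higher in KO. The part of RNA from other cells was not tested. The DC-like cells came from cluster 22, with 62 WT and 52 KO cells, and cluster 28, with 24 and 31, counted before doublets were left out. With a mitochondrial limit of 10% the log2 ratio of Ccl22 was 1.399. Interstitial macrophage-like cells, 51 in WT and 34 in KO, had 36 of 1907 measured genes past 2-fold (1.89%), 14 higher (0.734%) and 22 lower (1.15%), against 2.58% after papain. Among these, Cxcl10, an interferon-induced chemokine, was at 145 and 602 CPM (2.05, 1.75 to 2.36), with 161 of the 331 KO UMIs in 1 cell, and Ccr2, the receptor that brings monocytes into tissue, at 496 and 213 CPM (-1.22, -1.53 to -0.92). Ccl17 was at 235 and 41.8 CPM (-2.49, -3.18 to -1.86) and 912 and 223 CPM after papain, with 76 of the 199 resting WT UMIs in 1 cell. Picking these cells by transcripts turned the resting ratio of Ccl17 to 1.51.

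Few genes passed 2-fold in the same direction in at least 4 of the lineages in which they were measured, and these belonged to lineages with and without Cre alike. Of 5902 genes measured in 4 or more lineages, 2 were higher and 2 lower. Odc1 was past 2-fold higher in 5 of 11 lineages and above 0 in all 11, with log2 ratios from 0.39 to 1.32. Beside the T-like values, it was at 155 CPM in WT and 353 CPM in KO neutrophil-like cells and at 171 and 426 CPM in DC-like cells. After papain its ratios ran from -0.73 to 0.47. Gfod1 was past 2-fold higher in 5 of 7 lineages and above 0 in all 7, from 0.38 to 1.60, among them T-like cells with 8.62 and 20.7 CPM. The gene 9930111J21Rik2 was past 2-fold lower in 4 of 8 lineages, with ratios from -1.23 to -0.39. It stood at 149 and 65.4 CPM in nonclassical monocyte-like cells. Igkc, the immunoglobulin κ constant gene, was past 2-fold lower in 4 of 8 lineages, none of them B-like. Slc15a2 was past 2-fold higher in T-like, B-like and alveolar macrophage-like cells at rest. In the last it was at 2.79 and 9.91 CPM (1.83, 1.41 to 2.26) and 1.504 and 7.91 CPM after papain, so both KO libraries were above both WT libraries in all 3 lineages. Slc15a2 lies on GRCm38 at chr16:36750177-36784962 on the minus strand, and the cause of its difference was not tested.

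Over the 11 lineages 405 pairs of a gene and a lineage were past 2-fold at rest, and 14 of them owed most of the higher library's UMIs to 1 cell. After papain 357 of the pairs were measured, 27 were past 2-fold in the same direction and 18 in the opposite one. In 228 pairs both papain values lay between the resting WT and KO values. The pairs were picked for a wide resting gap, which by itself favours such values, and the share over all genes was not counted. The resting and papain comparisons share no library.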

How the data were processed

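Single-cell RNA libraries of sorted lung CD45.2+ cells were analysed, 1 for each genotype and treatment. The authors deposited raw UMI counts per gene and called barcode; per the file headers they were written by software version 3.1.0, and the submitters' processing notes name Cell Ranger and mm10. The gene annotation the authors used is not given in the sources used here. The barcode filter (more than 200 genes, under 15% mitochondrial UMIs) is the one the study states for another experiment. It left out 30 and 378 barcodes of DPBS WT and 42 and 200 of DPBS KO by genes and by mitochondrial share. With Python 3.11.15 (pandas 2.3.3, scipy 1.17.1, numpy 2.4.6), the Scrublet function of scanpy 1.11.5 ranked doublets, and the highest were removed at 0.8% per 1000 barcodes (585 in DPBS WT and 283 in DPBS KO). The 4 libraries were aligned and clustered together in Seurat 5.3.0 (R 4.3.3, Matrix 1.6.5) with 2000 variable genes, 30 dimensions and resolution 1.2. The stress lists and receptor segment genes were left out of the variable genes. Of the other lists, members that were also cell type markers, such as Gzma and Ccr7, could stay in, and the rest were left out. Of 34 clusters, 21 were named from markers, and differences from the study may come from these rebuilt names. The scoring rule and its limits were set after clusters had been seen.

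UMIs were summed per lineage and library and divided by the lineage total to give CPM. Ratios carry exact conditional binomial (Clopper-Pearson) 95% intervals, which cover counting error only. A class with 0 cells could still hold up to 0.0397% of DPBS WT and 0.0553% of DPBS KO cells (a floor of 3 counts). The self-test checked these intervals on simulated Poisson counts, the kind of counting that they assume. UMIs that pile up in single cells were not simulated, so the self-test does not cover them. Groups hold 1 library, so no test was run. Genes with at least 100 UMIs in the DPBS libraries together were compared. Named genes were, in each lineage, up to 10 highest and 10 lowest past 2-fold by the interval bound nearest 0, without immunoglobulin and T cell receptor segments, the genes shared by lineages and members of 35 lists (639 symbols, 3 not found). Cd14 in classical monocyte-like cells was chosen after its values were seen. The members and lists were chosen with earlier results of these data known. TMM factors came from edgeR 4.0.16. Positions are from GENCODE M21 on GRCm38 and promoters from RefSeq.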

Additional observations from a re-analysis of the deposited data

How the results depend on the processing

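Alternatives changed the scaling (TMM or median-of-ratios factors), the doublet, mitochondrial and gene filters, the way cells entered a lineage (picked by marker transcripts), the averaging, the UMI minimum and the fold. T-like cells joined with the other Cd3e+ clusters, and clusters given equal weight in both libraries, were chosen after seeing the data. Of 272 alternative values for 35 results, 238 stayed close, 34 moved and 0 reversed. The heat shock median was -0.145 in T-like cells joined with other Cd3e+ clusters, -0.445 (mean over cells) and -0.268 (equal cluster weights) in B-like cells, -0.317 (TMM) and -0.318 (median of ratios) in alveolar macrophage-like cells, and -0.424 (TMM) and -0.394 (picked by transcripts) in DC-like cells. The naive T and T activation medians were 0.231 and 0.0513 with the other Cd3e+ clusters. In classical monocyte-like cells the inflammatory median was 0.0365 (picked by transcripts) and 0.148 (equal weights) beside 0.375, and the interferon-stimulated median -0.173 and -0.349.

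Counts of genes past 2-fold depended most on the UMI minimum. Without it they were 1406 in T-like, 1224 in B-like, 1251 in alveolar macrophage-like and 1474 in classical monocyte-like cells, and at 1.5-fold 513, 328, 165 and 485. Picking cells by transcripts gave 99 in T-like and 30 in classical monocyte-like cells, equal cluster weights 33, 16 and 40 in T-like, B-like and classical monocyte-like cells, and the other Cd3e+ clusters 133 in T-like cells. Genes shared by lineages numbered 90 higher and 134 lower without the minimum, 42 and 23 at 1.5-fold, and 1 lower with TMM, with median-of-ratios factors and with doublets kept. Of 1250 alternative values for 195 named genes, 11 reversed. These were Gzmb in T-like cells (-0.266, picked by transcripts), Cd74 in NK-like cells (-1.13 with doublets kept and -0.284 picked by transcripts), and, picked by transcripts, Man2a2 (-0.243), Clec4e (-0.459), Wfdc17 (-2.08), S100a9 (2.48) and Ccl17 (1.51) in interstitial macrophage-like cells, Ly6d (3.67) and Ltb (0.930) in classical monocyte-like cells and Nr4a3 (-0.0895) in nonclassical monocyte-like cells. The cause was not tested.

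No paired analysis was possible because each group holds 1 library and the labels carry no replicate numbers, and with 1 library a group none was left out in turn. Lineages of under 100 cells a library, such as interstitial macrophage-like, ILC2-like and DC-like cells, rest on few cells, and 1 cell decides some genes there.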
